A study of Mus musculus with 12 samples.

Results

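In monolayers of MC38, a colon carcinoma line of the mouse, 85 genes gained transcript between 24h and 72h of culture in DMSO and stood lower after 72h with the MEK inhibitor GDC-0623 than after 72h in DMSO. They included Car6, a secreted carbonic anhydrase, Cxadr, the coxsackievirus and adenovirus receptor of cell junctions, Avil, an actin-binding protein of the villin family, and Cd300lb, a receptor best known from myeloid cells. The genes were selected on exactly these differences. Each was represented by its brightest probe set with a single gene symbol, and its mean log2 value had to be at least 0.6 higher in 72h DMSO than in 24h DMSO, at least 0.6 lower in 72h GDC-0623 than in 72h DMSO, and at least 6 in 72h DMSO. Predicted genes named Gm with a number or ending in Rik were left out. Of 18193 genes with a chosen probe set, 8906 without such a name reached that level, and 85 of these met all 3 limits. Of the genes left out by name, 2 met all 3 limits. The size of the rise in DMSO and of the drug difference at 72h is therefore given below as a description, without a test.

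The 4 groups were 72h GDC-0623, 72h DMSO, 24h GDC-0623 and 24h DMSO, each with 3 arrays that the labels call biological replicates. Cells were seeded the day before 100 nM GDC-0623 or the matching amount of its solvent DMSO was added, so all groups share 1 cell line and contain no other cell type by design. Time in culture cannot be told apart from whatever else differed between the 24h and 72h dishes. RNA was measured on one-colour Affymetrix mouse arrays, and values are log2 expression values on which a difference of 1 is a 2-fold change.

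MEK is the kinase that activates ERK, the last step of the RAS and RAF cascade, and ERK switches on transcription factors such as EGR1 and the ETV family together with its own brakes, the DUSP phosphatases. Cells that run short of amino acids or accumulate unfolded protein phosphorylate the initiation factor eIF2-alpha, which favours translation of the transcription factor ATF4. ATF4 in turn induces genes for amino acid synthesis, amino acid uptake and stress adaptation, in part through a composite C/EBP and ATF element in their promoters. Both programmes had members among the 85 genes, as did genes of hypoxia, of the NRF2 antioxidant response and of the cell surface.

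Promoter sequence was available for 61 of the 85 genes (91 windows of 300 bases, from 250 before to 50 after the start, RefSeq on GRCm38.p6). The letters TGATGNAA of the composite element, searched on both strands, occurred in windows of 8 of these 61 genes (13.1%), against 465 of 14368 array genes with a window (3.24%). A gene can have several windows, and counted by window the shares were 8.79% of the 91 and 2.73% of 18009 windows of array genes. The 8 genes were Avil, Chac1, Dock9, Echdc2, Pck2, Rab39b, Slc7a11 and Trib3. Ddit4 and Gpt2, also genes of the ATF4 response, had windows without a match, and no window was available for Cth or Aldh1l2. The windows of Chac1, Slc7a11 and Pck2 are shown because these genes belong to the ATF4 response, and that of Avil because its rise and drug difference were among the larger ones. The 250 bases before the start are printed 5′ to 3′ on the strand of the gene, with matches to the element in capitals. Their positions are chr2:119350992-119351241, plus strand, for Chac1, chr3:50443614-50443863, minus strand, for Slc7a11, chr14:55540016-55540265, plus strand, for Pck2, and chr10:127000459-127000708, plus strand, for Avil.
Chac1: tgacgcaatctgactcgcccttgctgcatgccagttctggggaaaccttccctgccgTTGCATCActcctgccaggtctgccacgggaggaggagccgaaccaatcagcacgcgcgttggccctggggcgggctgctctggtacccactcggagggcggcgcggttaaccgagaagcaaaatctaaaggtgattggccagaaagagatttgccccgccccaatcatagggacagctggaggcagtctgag
Slc7a11: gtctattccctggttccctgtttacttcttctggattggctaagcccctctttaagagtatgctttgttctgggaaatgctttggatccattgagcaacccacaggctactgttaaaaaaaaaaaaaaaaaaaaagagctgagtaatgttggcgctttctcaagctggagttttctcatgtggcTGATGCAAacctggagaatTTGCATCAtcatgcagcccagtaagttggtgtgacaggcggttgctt
Pck2: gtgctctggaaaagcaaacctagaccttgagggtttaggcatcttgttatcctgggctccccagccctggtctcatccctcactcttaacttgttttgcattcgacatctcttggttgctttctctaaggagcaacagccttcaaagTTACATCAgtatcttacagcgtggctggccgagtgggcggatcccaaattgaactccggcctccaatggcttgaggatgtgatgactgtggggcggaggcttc
Avil: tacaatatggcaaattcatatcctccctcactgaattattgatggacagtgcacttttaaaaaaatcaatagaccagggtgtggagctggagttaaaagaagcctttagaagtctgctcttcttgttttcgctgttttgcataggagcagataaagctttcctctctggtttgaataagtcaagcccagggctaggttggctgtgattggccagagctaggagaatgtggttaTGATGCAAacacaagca
The match began 193 bases before the start in Chac1, 103 before it in Pck2 and 17 before it in Avil. Slc7a11 held a pair of matches on opposite strands, beginning 66 and 47 bases before the start. In Trib3 the match lay 15 bases into the transcript, outside the stretch shown for the others.

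Of the other motifs searched on both strands, the CRE letters TGACGTCA were present in 2 of the 61 genes (3.28%, against 2.94% of array genes), Ppp1r15a and Paqr3. The promoter of Ppp1r15a, which encodes the GADD34 subunit of the eIF2-alpha phosphatase, is shown with this match in capitals 12 bases before the start (chr7:45526269-45526518, minus strand).
Ppp1r15a: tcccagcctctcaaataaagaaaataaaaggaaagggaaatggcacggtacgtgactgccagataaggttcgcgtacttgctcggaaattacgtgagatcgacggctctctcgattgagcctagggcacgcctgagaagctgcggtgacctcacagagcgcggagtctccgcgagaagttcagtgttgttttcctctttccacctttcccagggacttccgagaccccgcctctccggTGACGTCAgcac
AP-1 letters, TGANTCA, occurred in 6 of 61 genes (9.84%, against 7.5%) and the ETS letters CCGGAAGT in 1 of 61 (1.64%, against 6.65%). The E-box CACGTG was found in 7 (11.5%, against 10.3%), TATAAA in 11 (18%, against 11.5%), the TEAD letters GGAATG in 14 (23%, against 15.3%) and the STAT letters TTCNNNGAA in 4 (6.56%, against 8.57%). By window, the shares in members and array genes were 2.2% and 2.5% for CRE, 6.59% and 6.35% for AP-1 and 1.1% and 5.86% for ETS. They were 7.69% and 8.74% for the E-box, 16.5% and 9.76% for TATAAA, 18.7% and 13.2% for TEAD and 4.4% and 7.2% for STAT. Each motif was searched on its own, so matches of different motifs may overlap, a match is not evidence of binding, and the median GC content was 58.3% in both the members' windows and all windows.

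By construction every member was higher in 72h DMSO than in 24h DMSO, by 0.603 to 2.617 on the log2 scale (median 0.917). The rise reached 1 in 39 members and 2 in 4, namely Car6, Mgp, Egr1 and Ddit4. The difference between 72h GDC-0623 and 72h DMSO ran from -5.567 to -0.6 (median -1.093), with 51 members lowered by at least 1 and 14 by at least 2. In 25 members both changes reached 1. The 3 arrays of 72h DMSO lay above all 3 of 24h DMSO in 84 members, the exception being Nqo1, where 29.5% of the 8906 genes at the level of 6 showed such a separation. The 3 arrays of 72h GDC-0623 lay below all 3 of 72h DMSO in 84 members, the exception being Il33, against 36.5% of the genes. These counts follow from the selection.

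**Figure D1:**
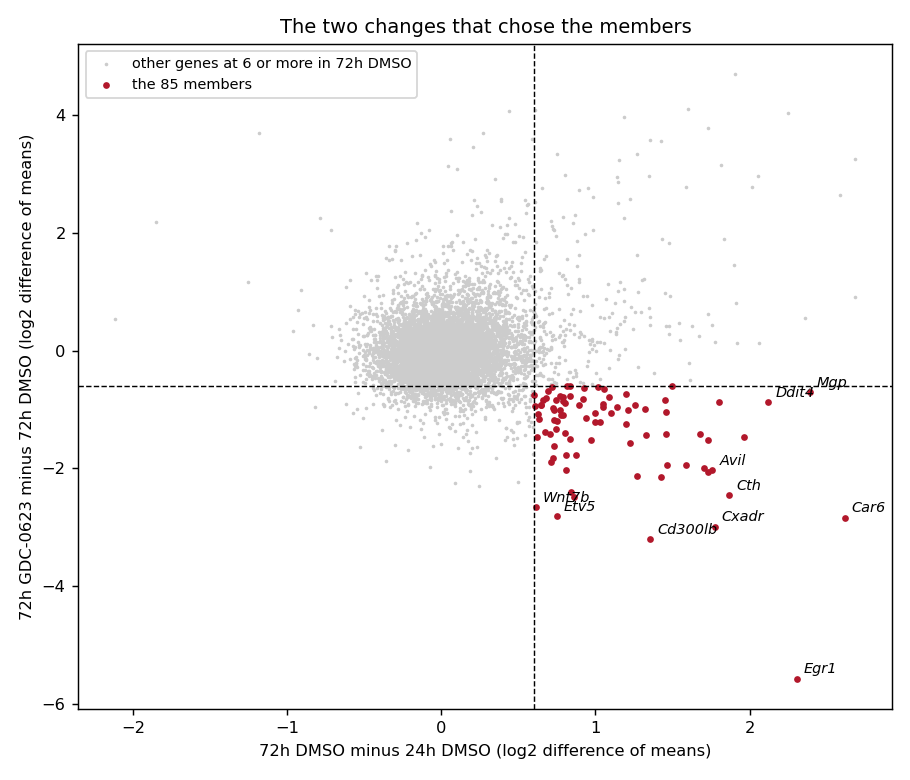
Each point is a gene with a 72h DMSO mean of at least 6. The horizontal axis gives the log2 difference 72h DMSO minus 24h DMSO and the vertical axis the log2 difference 72h GDC-0623 minus 72h DMSO. Dashed lines mark the limits of 0.6 and −0.6, and the 85 members (red) fill the lower right corner out to Car6 at 2.62 and −2.84 and Egr1 at 2.31 and −5.57.

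At the limits, Echdc2 and Mipol1 entered with rises of 0.603 and 0.607, while Tnnt2 and Mfsd2a, both with a rise of 0.593, stayed out. Ankrd37 and Gdpd1 entered with drug differences of -0.6 and -0.607, while Sesn2 at -0.59 and Otub2 at -0.57 stayed out. Il33 and Hectd2 entered with 72h DMSO means of 6.193 and 6.25, and Rwdd3 at 5.923 and Dach2 at 5.803 stayed out.

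Car6 on chromosome 4 showed the largest rise in DMSO. Its values were 6.16, 6.98 and 6.41 in 72h GDC-0623 and 9.38, 9.33 and 9.35 in 72h DMSO. At 24h they were 6.31, 5.88 and 6.05 in 24h GDC-0623 and 6.67, 6.87 and 6.67 in 24h DMSO. The 72h DMSO arrays thus stood apart from the other 9, at 6.13-fold the 24h DMSO level and 7.14-fold the 72h GDC-0623 level. Of 16 carbonic anhydrases measured, 2 reached a mean of 6 in 72h DMSO, and the other one, Car13, averaged 7.91 in 72h GDC-0623 and 7.31 in 72h DMSO, a difference of 0.60 (limma adjusted p = 0.00192). The drug difference therefore ran in opposite directions in the 2 carbonic anhydrases at that level.

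Cxadr on chromosome 16 read 4.07, 5.39 and 5.30 in 72h GDC-0623 and 7.87, 8.03 and 7.83 in 72h DMSO. At 24h its values were 4.63, 5.25 and 5.30 in 24h GDC-0623 and 6.04, 6.25 and 6.12 in 24h DMSO. Replicate 1 was the lowest array of both GDC-0623 groups, and no GDC-0623 array reached the lowest DMSO array of either time. Cxadr was 7.95-fold lower with GDC-0623 at 72h, and its 72h GDC-0623 mean lay 1.22 below the 24h DMSO mean. Its relative Jam3, the other member of the CTX and JAM adhesion proteins at a level of 6, averaged 6.78 in 72h GDC-0623 and 6.69 in 72h DMSO (adjusted p = 0.534).

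Avil on chromosome 10 read 6.25, 6.33 and 5.99 in 72h GDC-0623 and 8.41, 8.20 and 8.06 in 72h DMSO. The 24h arrays gave 6.53, 6.47 and 6.0 in 24h GDC-0623 and 6.43, 6.62 and 6.35 in 24h DMSO. All 9 arrays outside 72h DMSO lay between 5.99 and 6.62, below the lowest 72h DMSO array at 8.06. Avil was 3.38-fold higher in 72h DMSO than in 24h DMSO and 4.09-fold lower in 72h GDC-0623 than in 72h DMSO. Gsn, the gelsolin gene of the same protein family, moved the other way with the drug, at 11.45 in 72h GDC-0623 and 8.87 in 72h DMSO (difference 2.58, adjusted p = 0.000233), although it too was higher in 72h DMSO than in 24h DMSO, where it averaged 7.65.

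Cd300lb on chromosome 11 had 2.85, 3.77 and 3.52 in 72h GDC-0623 and 6.78, 6.51 and 6.45 in 72h DMSO. At 24h it had 4.74, 4.90 and 4.60 in 24h GDC-0623 and 5.49, 5.29 and 4.90 in 24h DMSO. Its mean of 3.38 in 72h GDC-0623 lay under the array medians of 4.63 to 4.7, so the 9.19-fold difference at 72h depends on background signal. Itgb2, which encodes the leukocyte integrin chain CD18, was the only other one of 13 measured CD300 family and leukocyte receptor genes with a 72h DMSO mean of 6 or more. Of 17 measured leukocyte markers, Cd14 and Cd68 reached that level, while Ptprc, which encodes the pan-leukocyte antigen CD45, averaged between 2.75 and 2.91 in the 4 groups. The summed level of the leukocyte markers, as log2 of the sum of linear values, ran from 9.07 to 9.21 in 72h GDC-0623, 9.25 to 9.38 in 72h DMSO, 8.95 to 9.15 in 24h GDC-0623 and 9.12 to 9.15 in 24h DMSO. Its part in the readings of Cd300lb and Itgb2 was not tested. Among epithelial markers, 1 of 14 measured, Tjp1, reached 6, and Cdh1, which encodes E-cadherin, averaged 2.61 to 2.72.

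**Figure D2:**
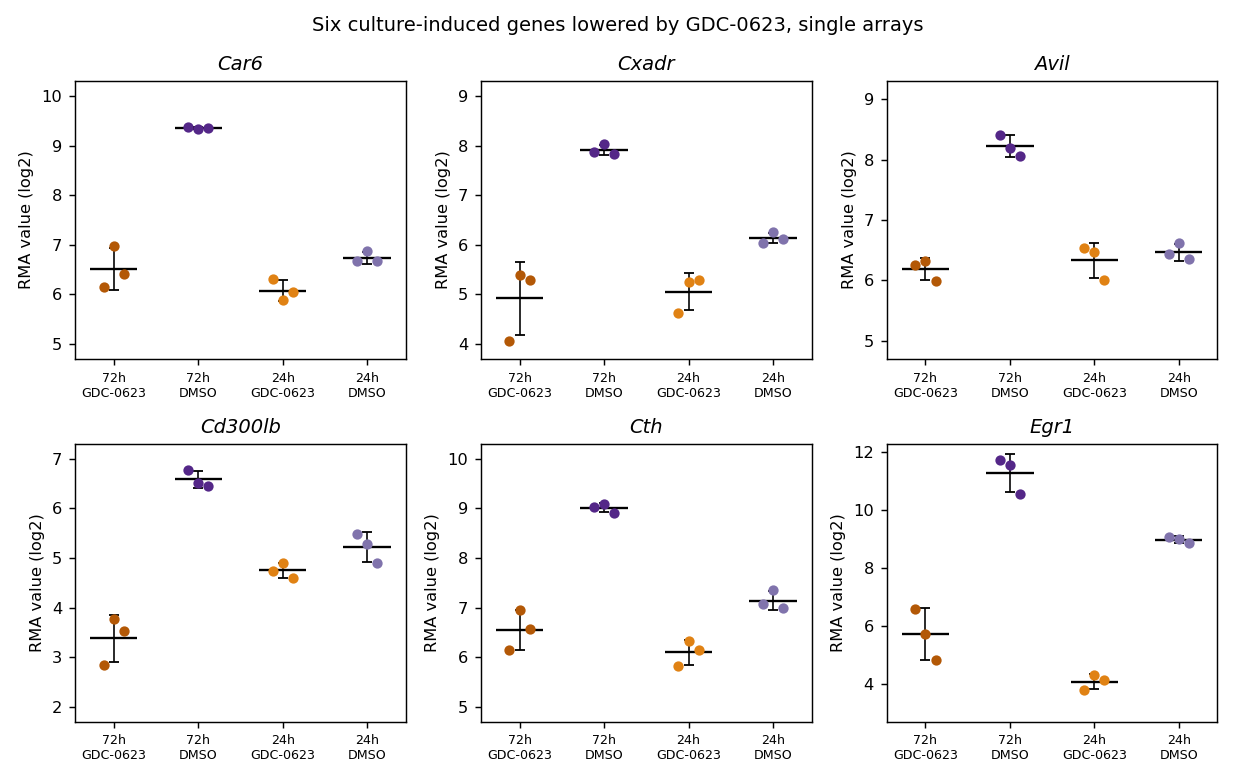
RMA values (log2, vertical axis) of 6 members on the single arrays of 72h GDC-0623, 72h DMSO, 24h GDC-0623 and 24h DMSO. Points are arrays, horizontal lines are group means and bars are ± 1 SD (n = 3). In each panel the 72h DMSO arrays are the highest, and for Avil the other 9 arrays lie between 5.99 and 6.62.

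The comparison of GDC-0623 with DMSO at 24h asks whether the members were already lower with the drug at the earlier time. Of the 85 members, 53 were lower in 24h GDC-0623 than in 24h DMSO and 1 was higher (limma, adjusted p under 0.05 over all probe sets), where 14.1% of the 8906 genes at this level were lower and 21.7% were higher. Their median difference was -0.403, against 0.017 over those genes, and 14 members fell by at least 1. At an unadjusted p under 0.05 the counts were 62 lower and 4 higher. The members were chosen for a fall with the same drug at 72h, so a share above that of all genes is no separate result. Of 540 genes lowered at 72h but not culture-induced, 83% were lower at 24h. The 24h DMSO arrays also entered the selection, which favoured genes with low 24h DMSO readings and so would move this difference upward. When arrays were scaled to the hybridization controls, which raised the median of all genes by 0.151, 35 members were lower and 5 higher, and with a minimum log2 fold of 0.5 there were 15 lower and none higher. In this bulk RNA, fewer cells with a transcript and less transcript per cell cannot be told apart.

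The largest 24h falls belonged to genes of the ERK pathway and of the cell surface. Egr1, an immediate early transcription factor, was at 3.81, 4.31 and 4.13 in 24h GDC-0623 and 9.09, 9.0 and 8.86 in 24h DMSO, a difference of -4.90 ± 0.12 (SE, adjusted p = 1.32e-07). Its 72h values were 6.61, 5.73 and 4.83 in 72h GDC-0623 and 11.74, 11.58 and 10.55 in 72h DMSO. No value of a GDC-0623 array reached the lowest DMSO array, and at 72h replicate 3 was the lowest array under both treatments. The 24h GDC-0623 mean of Egr1, 4.08, lay under the array medians of 4.63 to 4.7. The size of its 24h fall, and of its later change under the drug, thus depends on background signal.

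Etv5, an ETS transcription factor induced by ERK, was at 3.83, 5.07 and 5.41 in 24h GDC-0623 and 8.22, 8.30 and 8.17 in 24h DMSO (-3.46 ± 0.32, adjusted p = 0.000131). At 72h it read 5.34, 6.71 and 6.45 in 72h GDC-0623 and 9.04, 8.98 and 8.92 in 72h DMSO. In both GDC-0623 groups replicate 1 lay more than 1 unit below the other arrays, whereas the DMSO arrays had an SD of 0.06 at 72h and 0.07 at 24h. The 24h GDC-0623 mean of Etv5, 4.77, was near the array medians, so the size of its fall also depends on background signal. Dusp6, the phosphatase that inactivates ERK, was at 7.47, 8.09 and 8.27 in 24h GDC-0623 and 10.14, 10.13 and 9.93 in 24h DMSO (-2.12 ± 0.18, adjusted p = 7.06e-05). Its 72h values were 9.41, 9.81 and 9.01 in 72h GDC-0623 and 11.02, 11.09 and 10.60 in 72h DMSO, so 72h GDC-0623 lay below 24h DMSO in every array.

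Ereg, which encodes the EGF receptor ligand epiregulin, was at 6.55, 6.90 and 6.94 in 24h GDC-0623 and 8.13, 8.24 and 8.26 in 24h DMSO (-1.41 ± 0.11, adjusted p = 4.01e-05). At 72h its values were 7.45, 7.56 and 6.93 in 72h GDC-0623 and 9.06, 9.28 and 8.92 in 72h DMSO. Of the 22 ERK output genes at a level of 6, 18 were lower in 24h GDC-0623 than in 24h DMSO, 16 were lower in 72h GDC-0623 than in 72h DMSO, and 11 were higher in 72h DMSO than in 24h DMSO. Over all genes at that level, 22.2% were lower and 21% higher with the drug at 72h, and 15% were higher and 8.93% lower over time in DMSO. The rule picked 4 of the 22 genes on the last 2 comparisons, so these counts are a description. Of the 18 other genes, 12 were lower with the drug at 72h and 7 were higher over time in DMSO. The median 24h difference of these 22 genes was -0.99, against 0.017 over all genes at that level. With the drug at 24h, 14.1% of all genes at that level were lower and 21.7% higher. Other genes of the list rose in DMSO without meeting the drug limit. Ier3 averaged 10.93 in 72h GDC-0623 and 11.31 in 72h DMSO (adjusted p = 0.193), against 9.93 in 24h DMSO, and Spry2, an ERK feedback inhibitor, averaged 7.87 in 72h GDC-0623 and 7.55 in 72h DMSO (adjusted p = 0.182), against 6.88 in 24h DMSO.

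Itgb2 was at 4.26, 4.60 and 4.59 in 24h GDC-0623 and 6.89, 6.5 and 6.42 in 24h DMSO, a difference of -2.12 ± 0.14 (adjusted p = 1.75e-05). The 72h arrays gave 4.91, 5.12 and 5.08 in 72h GDC-0623 and 7.60, 7.34 and 7.39 in 72h DMSO. The highest of the 6 GDC-0623 arrays was at 5.12 and the lowest of the 6 DMSO arrays at 6.42. The 24h GDC-0623 mean of Itgb2, 4.48, lay under the array medians, so the size of its fall depends on background signal. Kcnk2, a background potassium channel, was at 4.95, 5.5 and 5.63 in 24h GDC-0623 and 7.19, 7.37 and 6.95 in 24h DMSO (-1.81 ± 0.17, adjusted p = 0.000139), with 72h values of 5.75, 6.46 and 6.40 in 72h GDC-0623 and 8.00, 7.94 and 7.99 in 72h DMSO. Evi2a, a membrane protein gene named for a viral integration site, was at 6.0, 6.16 and 6.52 in 24h GDC-0623 and 8.03, 8.11 and 7.85 in 24h DMSO (-1.77 ± 0.13, adjusted p = 3.43e-05). Its 72h values were 6.86, 6.87 and 6.70 in 72h GDC-0623 and 8.76, 8.77 and 8.59 in 72h DMSO, with no overlap between treatments at either time.

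Wnt7b, a secreted Wnt ligand, also lay among the members with a strong early response, at 7.70, 8.63 and 8.17 in 24h GDC-0623 and 9.99, 10.05 and 9.70 in 24h DMSO (-1.75 ± 0.20, adjusted p = 0.000424). At 72h it was at 7.06, 8.38 and 8.17 in 72h GDC-0623 and 10.43, 10.65 and 10.50 in 72h DMSO, so its rise in DMSO was small (0.61) beside the drug difference (-2.66). The other 4 Wnt ligand and feedback genes at a level of 6 had a median difference of -0.07 over time in DMSO, with Wnt5a at -0.10 (adjusted p = 0.583) and Znrf3 at -0.07 (0.74). Phex, a cell surface endopeptidase of bone, was at 5.40, 6.03 and 5.12 in 24h GDC-0623 and 6.70, 6.74 and 6.51 in 24h DMSO (-1.13 ± 0.19, adjusted p = 0.00351) and at 4.44, 5.5 and 5.14 in 72h GDC-0623 and 7.66, 7.40 and 7.47 in 72h DMSO. Replicate 1 was again the lowest 72h GDC-0623 array.

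**Figure D3:**
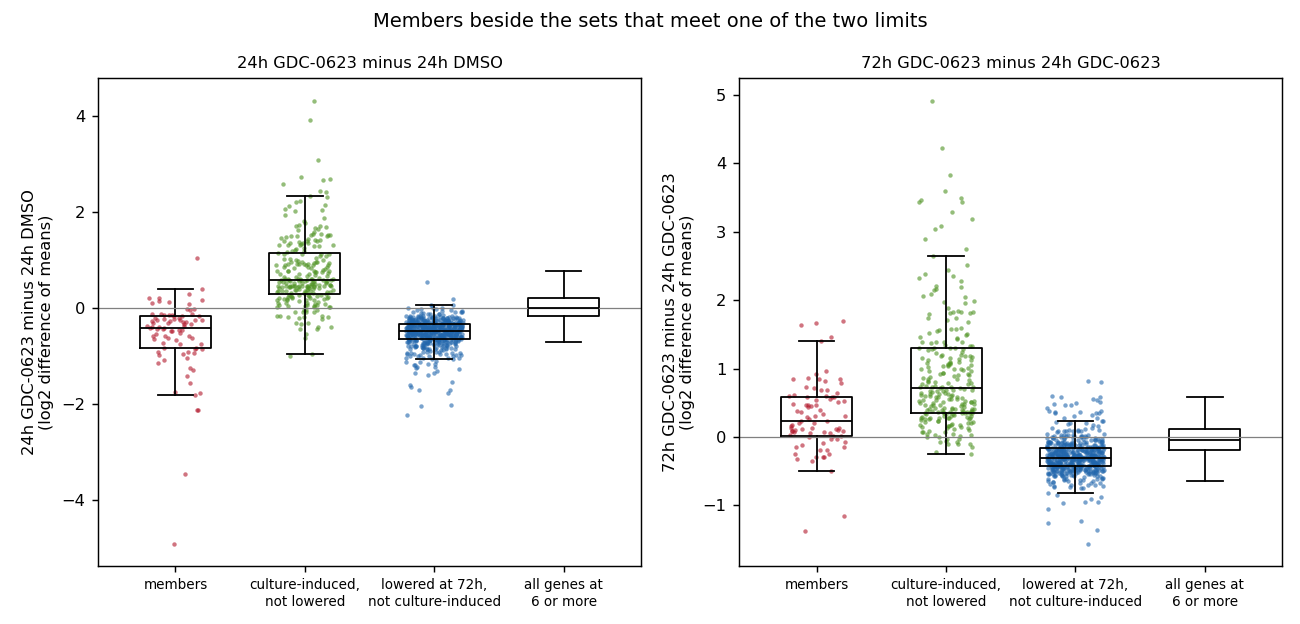
Log2 differences of the members (red), of 256 culture-induced genes not lowered by 0.6 at 72h (green), of 540 genes lowered at 72h but not culture-induced (blue), and of all 8906 genes at 6 or more. The left panel gives 24h GDC-0623 minus 24h DMSO and the right panel 72h GDC-0623 minus 24h GDC-0623. Points are genes, boxes span the quartiles with the median as a line, and whiskers end within 1.5 box lengths. The members' medians of −0.40 and 0.24 lie between those of the other sets.

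The members were set beside the genes that met only one of the limits at the same 72h DMSO level. Of 341 culture-induced genes, 256 were not lowered by 0.6 with GDC-0623 at 72h. At 24h, 7 of these 256 were lower and 186 higher with the drug, with a median difference of 0.592, against 53 lower and 1 higher of the 85 members. Of 625 genes lowered at 72h, 540 were not culture-induced. Of these, 448 were lower and 1 higher at 24h, with a median of -0.475. The members' 24h median had the sign of the other lowered genes and not that of the other culture-induced genes. The sets were sorted on the drug difference at 72h, with medians of -0.753 in the 540 genes and 0.417 in the 256. A like direction at 24h is therefore no separate result about the members. These sets were all drawn with the 24h DMSO and 72h arrays, and no test between them was made.

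The comparison of 72h with 24h under GDC-0623 asks how the members moved over time with the drug present. Under the drug, 29 of the 85 members were higher at 72h and 2 were lower, Cd300lb and Nqo1 (limma, adjusted p under 0.05), where 8.45% of the genes at this level were higher and 5.32% lower. The median difference was 0.24, against -0.047 over all genes at the level, and at an unadjusted p under 0.05 the counts were 40 higher and 7 lower. The selection favoured low 72h GDC-0623 readings, which would move this difference downward. It also required a rise over the same time in DMSO. The calls beside those of all genes are therefore shaped by the selection and are a description. With control scaling the median was 0.134 (27 higher, 5 lower), and with a minimum log2 fold of 0.5 there was 1 higher member and none lower. The count of members that were higher fell to 16 without 24h GDC-0623 replicate 2, 18 without 24h GDC-0623 replicate 3 and 19 without 72h GDC-0623 replicate 2. Of the 256 culture-induced genes outside the set, 173 were higher over time under the drug (median 0.708), and of the 540 genes that were lowered but not induced, 83 were lower and 7 higher (median -0.3). Those sets were sorted on the 72h GDC-0623 readings too, so their contrast with the members is a description.

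Set against the level before the rise, the 72h GDC-0623 mean lay below the 24h DMSO mean in 57 members and above it in 28. It was within 0.3 of that mean in 40 members, over 0.3 below it in 33 and over 0.3 above it in 12. The median was -0.22 and the range ran from -3.26 for Egr1 to 1.68 for Mgp. In 10 members the 72h GDC-0623 mean was over 1 below the 24h DMSO mean, Egr1, Etv5, Wnt7b, Cd300lb, Phex, Itgb2, Cxadr, Prkg2, Evi2a and Adamtsl3. The distance between these means is the sum of both differences that chose the members. Its counts are therefore shaped by the selection and are a description, without a test. Over the 85 members, the array medians were 7.29 to 7.56 in 72h GDC-0623, 8.92 to 9.04 in 72h DMSO, 7.01 to 7.22 in 24h GDC-0623 and 7.96 to 8.03 in 24h DMSO.

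The calls of both comparisons are listed here to account for every member. They share the 24h GDC-0623 arrays, where a low reading lowers the first difference and raises the second, so their joint counts are no separate result. In 20 genes the calls were lower at 24h and higher over time under the drug: Egr1, Gadd45a, Acpp, Ero1a, Trib3, Glrp1, Tgif1, Chac1, Pck2, Slc2a1, Ier2, Itgb2, Dusp6, Itpr2, Kcnk2, Tmem74, Syne1, Evi2a, Ciart and Egr2. In 32 genes the call was lower at 24h with no call over time under the drug: Car6, Cth, Cxadr, Angptl6, Slc7a11, Gap43, Cox6a2, Ereg, Phex, Prkg2, Col18a1, Cyb5r1, Abcd4, Glce, Gnpnat1, Atf6, Cst6, Etv5, Fam110c, Pla2g12a, Adamtsl3, Slc25a33, Wars, Oaf, Tbpl1, Dock9, Zfp52, Psph, Gfra1, Aig1, Wnt7b and Echdc2. In 9 genes there was no call at 24h and a rise over time under the drug: Il33, Akna, Ddit4, Ppp1r15a, Kdm7a, P2rx3, Tenm4, Mgp and Ankrd37. A further 22 genes had no call in either comparison: Avil, Tcim, Taf7l, Hectd2, Paqr3, Acot2, Zbtb18, Rab39b, Stbd1, Slc6a9, Gpt2, Lbh, Aldh1l2, Dus4l, Ldlrad3, Srxn1, Erbb3, Ets2, Satb1, Them4, Mipol1 and Gdpd1. Cd300lb was lower in both comparisons, and Nqo1 was higher at 24h and lower over time. A missing call does not show that a gene did not change.

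**Figure D4:**
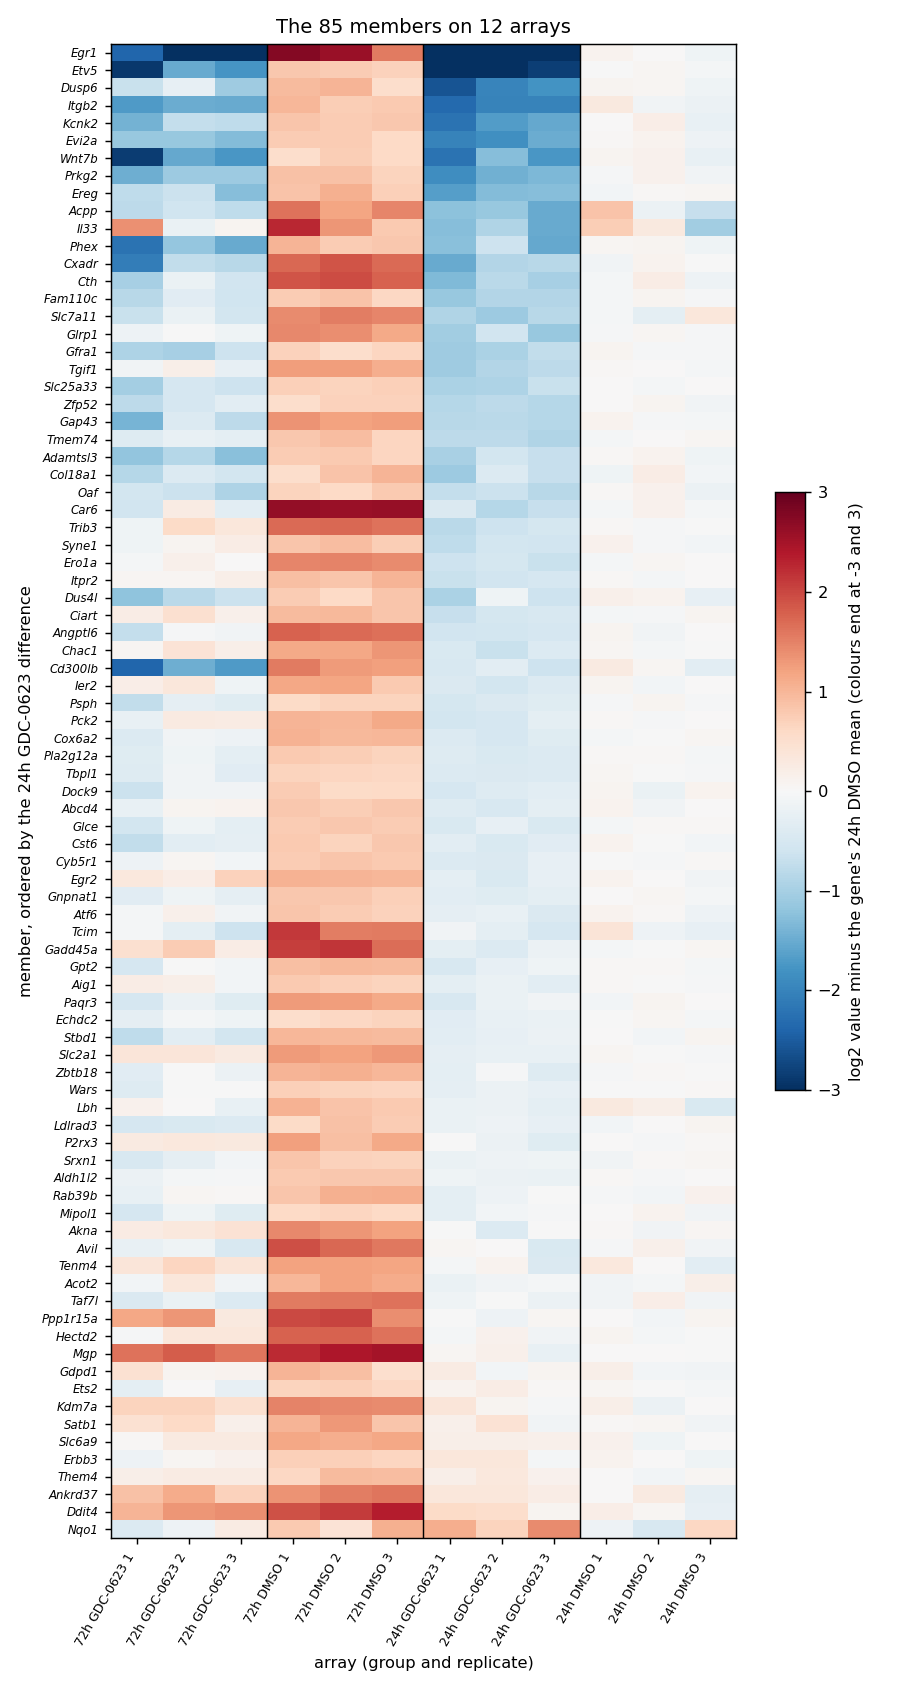
Rows are the 85 members, ordered by the log2 difference 24h GDC-0623 minus 24h DMSO, and columns are the 12 arrays. Colour gives the log2 value minus the gene's 24h DMSO mean, from blue (lower) to red (higher), and ends at −3 and 3. The 72h DMSO columns are red or pale red throughout, and the 24h GDC-0623 columns run from blue for Egr1 and Etv5 at the top to red for Nqo1 at the bottom.

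In several members, as in Avil, the arrays outside 72h DMSO lay close together. Taf7l, a TFIID subunit paralogue of germ cells, was at 4.27, 4.49 and 4.28 in 72h GDC-0623 and 6.25, 6.29 and 6.33 in 72h DMSO, against 4.57, 4.68 and 4.53 in 24h GDC-0623 and 4.59, 4.91 and 4.60 in 24h DMSO. Hectd2, a HECT-domain ubiquitin ligase, was at 4.48, 4.85 and 4.85 in 72h GDC-0623 and 6.30, 6.29 and 6.16 in 72h DMSO, against 4.45, 4.64 and 4.41 in 24h GDC-0623 and 4.60, 4.45 and 4.51 in 24h DMSO. Tcim was at 4.62, 4.40 and 4.08 in 72h GDC-0623 and 6.80, 6.23 and 6.24 in 72h DMSO, against 4.59, 4.40 and 4.18 in 24h GDC-0623 and 5.08, 4.54 and 4.45 in 24h DMSO. In each of these 3 genes all 3 arrays of 72h DMSO stood above 6 and the other 9 reached at most 5.08, near the array medians, so the baseline lay in the background range. The 24h difference was -0.11 ± 0.10 in Taf7l (adjusted p = 0.523), -0.02 ± 0.08 in Hectd2 (0.905) and -0.30 ± 0.16 in Tcim (0.261).

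Paqr3, which encodes a Golgi protein that binds RAF kinase, was at 6.25, 6.57 and 6.38 in 72h GDC-0623 and 8.03, 8.01 and 7.89 in 72h DMSO, against 6.27, 6.54 and 6.65 in 24h GDC-0623 and 6.66, 6.83 and 6.76 in 24h DMSO. Acot2, a mitochondrial acyl-CoA thioesterase, was at 8.67, 9.09 and 8.65 in 72h GDC-0623 and 9.75, 9.96 and 9.86 in 72h DMSO, against 8.56, 8.64 and 8.70 in 24h GDC-0623 and 8.64, 8.69 and 8.94 in 24h DMSO. In both genes the 72h GDC-0623 mean lay within 0.35 of the 24h DMSO mean, and neither passed the test at 24h (adjusted p = 0.118 and 0.419) or over time under the drug (0.727 and 0.45).

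Angptl6, a secreted angiopoietin-like factor, was at 6.26, 6.95 and 6.86 in 72h GDC-0623 and 8.74, 8.67 and 8.63 in 72h DMSO. At 24h it was at 6.40, 6.43 and 6.47 in 24h GDC-0623 and 7.06, 6.88 and 6.99 in 24h DMSO, a difference of -0.54 ± 0.07 (adjusted p = 0.000974). Its 24h GDC-0623 arrays lay close together (SD 0.04) and below every 24h DMSO array. Gap43, a growth cone protein, was at 5.46, 6.46 and 6.07 in 72h GDC-0623 and 8.21, 8.07 and 8.11 in 72h DMSO. Its 24h values were 6.02, 6.05 and 6.01 in 24h GDC-0623 and 6.97, 6.82 and 6.79 in 24h DMSO (-0.83 ± 0.07, adjusted p = 9.13e-05), and replicate 1 was the lowest of the 72h GDC-0623 arrays in both genes. Glrp1, glutamine repeat protein 1, was at 6.67, 6.81 and 6.69 in 72h GDC-0623 and 8.28, 8.23 and 7.96 in 72h DMSO, against 5.78, 6.26 and 5.69 in 24h GDC-0623 and 6.79, 6.90 and 6.80 in 24h DMSO. It fell by 0.92 at 24h (adjusted p = 0.00152) and was higher at 72h than at 24h under the drug by 0.81 ± 0.14 (0.00907). Tgif1, a homeobox repressor of TGF-beta responses, followed the same course, at 8.67, 8.95 and 8.52 in 72h GDC-0623 and 10.01, 10.03 and 9.85 in 72h DMSO and at 7.71, 7.88 and 7.99 in 24h GDC-0623 and 8.81, 8.77 and 8.72 in 24h DMSO. Its differences were -0.91 ± 0.08 at 24h (0.000129) and 0.85 ± 0.12 over time under the drug (0.00368), and its 72h GDC-0623 mean differed from the 24h DMSO mean by -0.05.

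Acpp, which encodes prostatic acid phosphatase, was at 5.65, 5.84 and 5.68 in 72h GDC-0623 and 8.06, 7.63 and 7.90 in 72h DMSO. At 24h its values were 5.21, 5.29 and 4.93 in 24h GDC-0623 and 7.30, 6.26 and 5.75 in 24h DMSO, with an SD of 0.79 among the DMSO arrays. The 24h difference of -1.29 ± 0.31 (adjusted p = 0.0201) missed the threshold without 24h GDC-0623 replicate 1 (-1.33, 0.0641) or replicate 3 (-1.19, 0.0768).

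Of the 24 genes of the ATF4 amino acid response list, 21 had a 72h DMSO mean of at least 6, and 8 of them were members. Of these 21 genes, 18 were higher in 72h DMSO than in 24h DMSO and 16 were lower in 72h GDC-0623 than in 72h DMSO, with medians of 0.62 and -0.88. Because the rule used these comparisons to pick the 8 members, these counts are a description. Of the 13 other genes, 10 were higher over time in DMSO and 8 lower with the drug at 72h, beside 15% and 22.2% of all genes at the level. At 24h, 13 of the 21 were lower with GDC-0623 and 2 were higher, Nupr1 and Vldlr, beside 14.1% lower and 21.7% higher of all genes at the level (medians -0.37 and 0.017). Over time under the drug 7 of the 21 were higher, beside 8.45% of all genes at the level (medians 0.29 and -0.047).

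Among the members with a role in cysteine and glutathione, Cth, the enzyme that makes cysteine from cystathionine, was at 6.15, 6.95 and 6.56 in 72h GDC-0623 and 9.03, 9.09 and 8.91 in 72h DMSO. The 24h arrays read 5.82, 6.33 and 6.14 in 24h GDC-0623 and 7.07, 7.36 and 6.99 in 24h DMSO, a difference of -1.04 ± 0.14 (adjusted p = 0.0009). The lowest 72h DMSO array of Cth was at 8.91 and the highest array outside that group at 7.36. Slc7a11, the cystine importer whose promoter holds the paired element shown above, was at 5.95, 6.42 and 6.06 in 72h GDC-0623 and 8.03, 8.14 and 8.07 in 72h DMSO. Its 24h values were 5.70, 5.52 and 5.79 in 24h GDC-0623 and 6.55, 6.33 and 6.96 in 24h DMSO (-0.94 ± 0.14, adjusted p = 0.0021). Here the highest array outside 72h DMSO was a 24h DMSO array at 6.96, below the lowest 72h DMSO array at 8.03. Chac1, which degrades glutathione, was at 9.04, 9.39 and 9.16 in 72h GDC-0623 and 10.12, 10.16 and 10.32 in 72h DMSO. It was at 8.54, 8.33 and 8.59 in 24h GDC-0623 and 9.06, 8.93 and 8.98 in 24h DMSO after 24h (-0.50 ± 0.09, 0.00341). In all 3 genes the 24h GDC-0623 arrays lay below the 24h DMSO arrays, and Cth and Slc7a11 had 72h GDC-0623 means below the 24h DMSO means, whereas that of Chac1 was 0.21 above. Over time under the drug, Chac1 was higher by 0.71 ± 0.11 (adjusted p = 0.00601), while Slc7a11 differed by 0.47 ± 0.13 (0.0567).

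Trib3, a pseudokinase that restrains AKT and ATF4, was at 9.12, 9.81 and 9.59 in 72h GDC-0623 and 10.94, 10.96 and 10.86 in 72h DMSO. After 24h the readings were 8.43, 8.63 and 8.72 in 24h GDC-0623 and 9.28, 9.21 and 9.23 in 24h DMSO (-0.65 ± 0.09, adjusted p = 0.000902). It was higher at 72h than at 24h under the drug by 0.91 ± 0.16 (0.0105), a call that was lost without 24h GDC-0623 replicate 2 (0.93, 0.0514). Ddit4, which encodes the mTORC1 inhibitor REDD1, was at 9.33, 9.63 and 9.72 in 72h GDC-0623 and 10.23, 10.41 and 10.68 in 72h DMSO. Its 24h values of 8.89, 8.85 and 8.40 in 24h GDC-0623 and 8.51, 8.38 and 8.06 in 24h DMSO overlapped between treatments (0.40 ± 0.15, 0.107). Ddit4 was higher over time under the drug by 0.85 ± 0.15 (0.00975), and its 72h GDC-0623 mean stayed 1.24 above the 24h DMSO mean, so only part of its rise was missing.

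Of the metabolic enzymes, Pck2, the mitochondrial PEP carboxykinase, was at 9.61, 10.11 and 10.07 in 72h GDC-0623 and 10.85, 10.82 and 10.97 in 72h DMSO. Its 24h readings were 9.28, 9.33 and 9.54 in 24h GDC-0623 and 9.87, 9.79 and 9.84 in 24h DMSO (-0.45 ± 0.08, adjusted p = 0.00532). Its change over time under the drug of 0.55 ± 0.14 (0.044) missed the threshold without any one of 24h GDC-0623 replicates 1, 2 and 3 and 72h GDC-0623 replicates 2 and 3 (0.46 to 0.63, adjusted p 0.0808 to 0.157). Gpt2, the mitochondrial alanine aminotransferase, was at 8.55, 9.03 and 8.96 in 72h GDC-0623 and 9.96, 10.02 and 9.99 in 72h DMSO. All 3 of its 72h GDC-0623 arrays lay under the 24h DMSO mean of 9.05. Aldh1l2, an enzyme of mitochondrial folate metabolism, was at 9.33, 9.46 and 9.47 in 72h GDC-0623 and 10.29, 10.31 and 10.33 in 72h DMSO. Their 24h differences of -0.29 ± 0.10 and -0.17 ± 0.07 missed the threshold (adjusted p = 0.0758 and 0.124), although in both genes no 24h GDC-0623 array reached the lowest 24h DMSO array.

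Among the other ATF4 list genes, Asns, asparagine synthetase, averaged 11.35 in 72h GDC-0623 and 12.12 in 72h DMSO, a difference of -0.76 (adjusted p = 0.00211), and 11.65 in 24h DMSO, a rise of 0.47 that kept it out of the set. Sesn2, sestrin 2, met the rise limit at 0.62 and missed the drug limit at -0.59. Nupr1, a stress-induced chromatin protein, was instead higher in 24h GDC-0623 than in 24h DMSO by 0.56 (adjusted p = 0.00488) and averaged 9.84 in 72h GDC-0623 and 9.38 in 72h DMSO (adjusted p = 0.0561). Vldlr, a lipoprotein receptor, was higher in 24h GDC-0623 by 0.57 (0.00107) and differed by -0.07 at 72h (0.729). The list thus held genes that were lower with the drug at 72h and genes with no such call.

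Further members have textbook links to amino acid supply and unfolded protein, chosen here after their values were seen. Psph, the last enzyme of serine synthesis, averaged 10.01 ± 0.25 in 72h GDC-0623 and 11.09 ± 0.05 in 72h DMSO (SD, n = 3), against 10.01 ± 0.08 in 24h GDC-0623 and 10.46 ± 0.07 in 24h DMSO. Wars, the tryptophanyl-tRNA synthetase, averaged 8.78 ± 0.21 in 72h GDC-0623 and 9.59 ± 0.04 in 72h DMSO, against 8.69 ± 0.05 in 24h GDC-0623 and 8.92 ± 0.03 in 24h DMSO. In both genes the 72h GDC-0623 mean was under the 24h DMSO mean. Slc6a9, a glycine transporter, averaged 8.36 ± 0.13 in 72h GDC-0623 and 9.31 ± 0.05 in 72h DMSO. Atf6, a sensor of unfolded protein in the endoplasmic reticulum, averaged 8.47 ± 0.13 in 72h GDC-0623 and 9.25 ± 0.07 in 72h DMSO. At 24h Psph fell by 0.45 (adjusted p = 0.00292), whereas Slc6a9 differed by 0.17 ± 0.08 (0.207).

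Ppp1r15a was at 9.97, 10.14 and 9.10 in 72h GDC-0623 and 10.79, 10.85 and 10.20 in 72h DMSO. The 24h values were 8.79, 8.67 and 8.88 in 24h GDC-0623 and 8.82, 8.72 and 8.90 in 24h DMSO, with overlap between treatments (-0.03 ± 0.08, adjusted p = 0.831). Replicate 3 was the lowest array of both 72h groups, as it was for Egr1, Ier2, Gadd45a and Dusp6. The change over time under the drug was 0.96 ± 0.23 (0.0358), but it missed the threshold without any one of 24h GDC-0623 replicates 1, 2 and 3 and 72h GDC-0623 replicates 1 and 2 (0.76 to 1.01, adjusted p 0.0819 to 0.141). Its 72h GDC-0623 mean was 0.92 above the 24h DMSO mean.

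**Figure D5:**
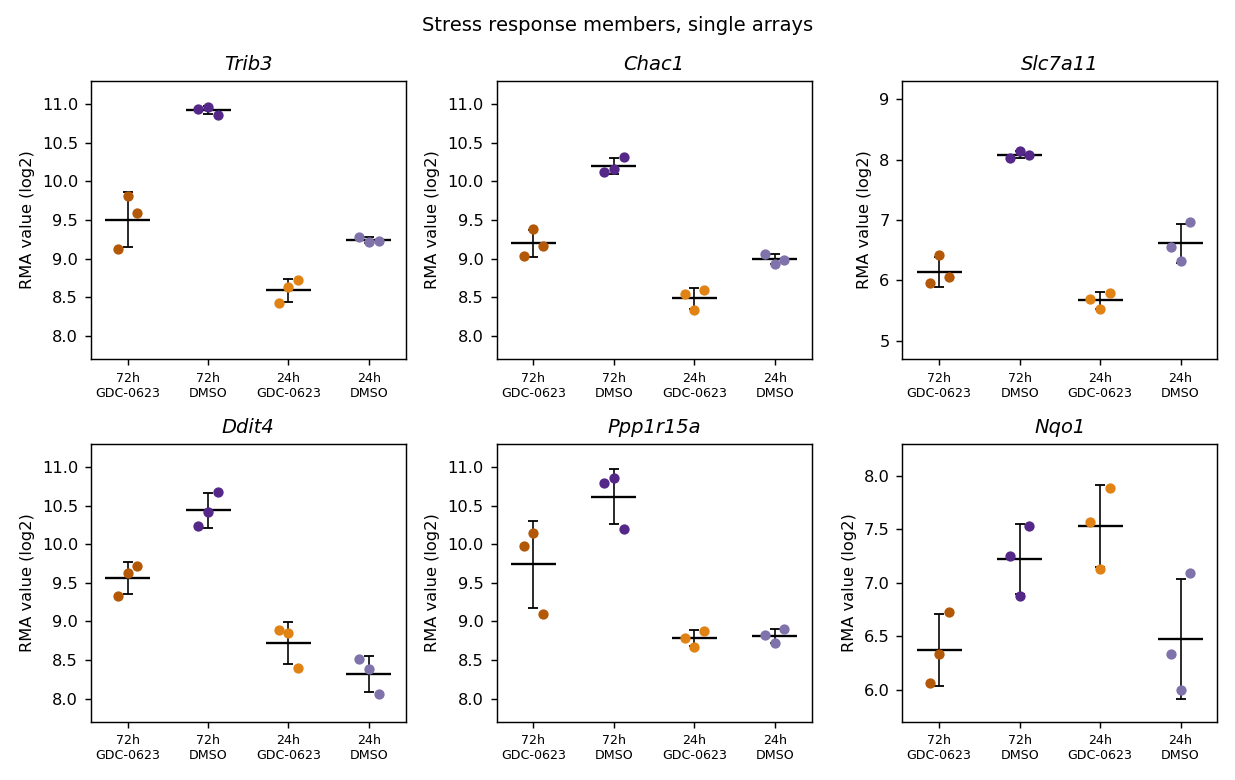
RMA values (log2, vertical axis) of 6 stress response members on the single arrays of 72h GDC-0623, 72h DMSO, 24h GDC-0623 and 24h DMSO, with group means and ± 1 SD (n = 3). Ddit4 and Ppp1r15a keep part of their rise in 72h GDC-0623, 1.24 and 0.92 above the 24h DMSO means, and Nqo1 is highest in 24h GDC-0623.

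Gadd45a, a growth arrest gene induced by p53 and by ATF4, was at 8.53, 8.81 and 8.28 in 72h GDC-0623 and 10.12, 10.19 and 9.72 in 72h DMSO. At 24h it was at 7.75, 7.64 and 7.87 in 24h GDC-0623 and 7.99, 8.04 and 8.11 in 24h DMSO, a difference of -0.29 ± 0.08 (adjusted p = 0.0328) that missed the threshold without any one of 24h DMSO replicates 1, 2 and 3 and 24h GDC-0623 replicates 1 and 2 (-0.32 to -0.24, adjusted p 0.0584 to 0.113). Over time under the drug it was higher by 0.79 ± 0.13 (0.00793). It was the sole member among 15 p53 targets at a level of 6. Of the 14 others, 6 were higher in 72h DMSO than in 24h DMSO, beside 15% of all genes at the level. Cdkn1a, the cell cycle inhibitor p21, rose by 1.01 in DMSO (adjusted p = 9.52e-05) and differed by -0.38 with GDC-0623 at 72h (0.0212), short of the limit.

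Of 18 hypoxia and glycolysis genes at a level of 6, 3 were members, Ero1a, Slc2a1 and Ankrd37, picked on the comparisons counted here. Of the 15 others, 12 were higher in 72h DMSO than in 24h DMSO, beside 15% of all genes at the level. At 72h 3 of the 15 were lower and 6 higher with GDC-0623, beside 22.2% and 21% of all genes. Ero1a, the oxidase that drives disulfide formation in the endoplasmic reticulum, was at 9.63, 9.84 and 9.69 in 72h GDC-0623 and 11.15, 11.17 and 11.09 in 72h DMSO. Its 24h values were 9.05, 9.16 and 9.01 in 24h GDC-0623 and 9.62, 9.73 and 9.69 in 24h DMSO (-0.61 ± 0.07, adjusted p = 0.000531). Over time the drug-treated cells gained 0.65 ± 0.09 (0.00277), which brought 72h GDC-0623 to within 0.04 of the 24h DMSO mean.

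Slc2a1, the glucose transporter GLUT1, was at 10.27, 10.28 and 10.18 in 72h GDC-0623 and 11.19, 11.11 and 11.20 in 72h DMSO. At 24h it was at 9.64, 9.68 and 9.68 in 24h GDC-0623 and 9.96, 9.90 and 9.87 in 24h DMSO, and the difference of -0.24 ± 0.07 (adjusted p = 0.0318) missed the threshold without any one of the 6 arrays (-0.26 to -0.22, adjusted p 0.0603 to 0.114). Under the drug it was higher at 72h than at 24h by 0.58 ± 0.07 (0.00219). Ankrd37, a HIF target, was at 6.69, 6.94 and 6.51 in 72h GDC-0623 and 7.16, 7.36 and 7.42 in 72h DMSO, and at 6.16, 6.16 and 6.04 in 24h GDC-0623 and 5.82, 6.08 and 5.55 in 24h DMSO. Its rise over time under the drug of 0.59 ± 0.11 (0.0139) was lost without 24h GDC-0623 replicate 2 (0.61, 0.0596) or replicate 3 (0.55, 0.0707). Other hypoxia genes rose in DMSO and were higher with the drug, such as Bnip3, a mitophagy receptor, at 11.48 in 72h GDC-0623 and 10.99 in 72h DMSO (0.49, adjusted p = 0.0156), against 9.80 in 24h DMSO.

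Nqo1, the NRF2-induced quinone reductase, was the sole member called higher at 24h with GDC-0623. It was at 7.57, 7.13 and 7.89 in 24h GDC-0623 and 6.33, 6.0 and 7.09 in 24h DMSO (1.06 ± 0.26, adjusted p = 0.0228). At 72h it was at 6.06, 6.33 and 6.73 in 72h GDC-0623 and 7.25, 6.88 and 7.53 in 72h DMSO. Replicate 3 was the highest array of every group, the 24h call was lost without any one of 24h DMSO replicates 1 and 2 and 24h GDC-0623 replicates 1 and 3 (0.82 to 1.04, adjusted p 0.0707 to 0.0872), and the fall over time under the drug was -1.16 ± 0.21 (0.0108). Srxn1, sulfiredoxin, was at 9.05, 9.27 and 9.44 in 72h GDC-0623 and 10.36, 10.22 and 10.20 in 72h DMSO, and at 9.32, 9.37 and 9.40 in 24h GDC-0623 and 9.43, 9.56 and 9.60 in 24h DMSO. Its 24h difference of -0.17 ± 0.07 missed the threshold (0.161). Of the 10 NRF2 antioxidant genes at a level of 6, 3 were members, Nqo1, Srxn1 and Slc7a11. Of the other 7, Hmox1, heme oxygenase, had the largest rise in DMSO at 0.32 (adjusted p = 0.11), and 4 of these 7 were lower with GDC-0623 at 72h, beside 22.2% of all genes at the level.

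The largest change over time under the drug was that of Mgp, matrix Gla protein, an inhibitor of calcification. It was at 6.46, 6.63 and 6.42 in 72h GDC-0623 and 7.06, 7.25 and 7.33 in 72h DMSO. The 24h arrays stood at 4.87, 4.98 and 4.59 in 24h GDC-0623 and 4.84, 4.83 and 4.8 in 24h DMSO, with no drug difference beyond the spread (-0.01 ± 0.10, adjusted p = 0.964). Under GDC-0623 it rose over time by 1.69 ± 0.11 (6.3e-05), beside 2.39 in DMSO, so it kept the larger part of its rise. Il33, an alarmin cytokine, was at 6.11, 4.54 and 4.82 in 72h GDC-0623 and 7.0, 6.06 and 5.52 in 72h DMSO. Its 24h values were 3.45, 3.82 and 3.21 in 24h GDC-0623 and 5.48, 5.02 and 3.70 in 24h DMSO. Its SD was 0.84 in 72h GDC-0623, 0.75 in 72h DMSO, 0.31 in 24h GDC-0623 and 0.92 in 24h DMSO, the 72h groups overlapped, and its change over time under the drug (1.66 ± 0.35, 0.0215) was lost without any one of the 24h GDC-0623 arrays (1.52 to 1.83, adjusted p 0.0592 to 0.101).

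Dusp6 also recovered over time under the drug, by 1.47 ± 0.23 (adjusted p = 0.00617), and stayed 0.66 below its 24h DMSO mean. Egr1 changed by 1.64 ± 0.36 (0.0261), a call lost without any one of 24h GDC-0623 replicates 1, 2 and 3 and 72h GDC-0623 replicate 2 (1.5 to 1.75, adjusted p 0.059 to 0.096). For Itgb2 the change was 0.55 ± 0.11 (0.0183) and was lost without 72h GDC-0623 replicate 2 (0.51, 0.0532). Kcnk2 changed by 0.84 ± 0.21 (0.0457) and Evi2a by 0.58 ± 0.13 (0.0275). The call of Kcnk2 was lost without any one of 24h GDC-0623 replicates 1, 2 and 3 and 72h GDC-0623 replicates 2 and 3 (0.64 to 0.98, adjusted p 0.0764 to 0.116), and that of Evi2a without 24h GDC-0623 replicate 1 or 2 or 72h GDC-0623 replicate 1 or 2 (0.47 to 0.56, adjusted p 0.0663 to 0.117).

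Cd300lb was the one member that was lower with the drug at 24h and lower still at 72h under it. The 24h difference was -0.48 ± 0.14 (adjusted p = 0.0461), with overlapping arrays, and it missed the threshold without any one of 5 arrays, 24h DMSO replicates 1 and 2 and 24h GDC-0623 replicates 1, 2 and 3 (-0.56 to -0.35, adjusted p 0.0571 to 0.146). The change over time under the drug was -1.37 ± 0.20 (0.00442). Car6 and Cxadr fell by 0.66 and 1.08 at 24h (adjusted p = 0.00355 and 0.0017), with differences over time under the drug of 0.44 ± 0.19 (0.209) and -0.14 ± 0.32 (0.845). Avil differed by -0.13 ± 0.14 at 24h (0.575) and -0.14 ± 0.15 over time under the drug (0.621). Car6, Cxadr, Avil and Cd300lb were not tested against one another.

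Several members outside the lists are transcription factors or early response genes, named after their values were seen. Egr2 averaged 5.95 ± 0.25 in 72h GDC-0623 and 6.57 ± 0.03 in 72h DMSO, against 5.22 ± 0.11 in 24h GDC-0623 and 5.55 ± 0.10 in 24h DMSO. Its 24h difference of -0.33 (adjusted p = 0.0255) was small beside that of Egr1. Ier2, an immediate early gene, averaged 9.69 ± 0.24 in 72h GDC-0623 and 10.60 ± 0.23 in 72h DMSO, and Ets2 averaged 8.44 ± 0.15 and 9.28 ± 0.04 in the same groups. Ier2 was lower at 24h by -0.47 (0.00243), while Ets2 differed by 0.12 (0.33). Zbtb18 and Satb1, nuclear repressors of transcription, differed by -0.23 (0.131) and 0.16 (0.463) at 24h and by -1.21 and -0.66 at 72h.

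Receptors and signalling proteins outside the lists included members with and without a call at 24h. Prkg2, a cGMP-dependent protein kinase, averaged 8.70 ± 0.28 in 24h GDC-0623 and 10.25 ± 0.13 in 24h DMSO (-1.55 ± 0.13, adjusted p = 7.65e-05). Gfra1, the GDNF co-receptor, averaged 8.09 ± 0.16 in 24h GDC-0623 and 9.01 ± 0.06 in 24h DMSO (-0.91 ± 0.09, 0.000185). Erbb3, a receptor of the EGF receptor family, averaged 6.94 ± 0.23 in 24h GDC-0623 and 6.73 ± 0.11 in 24h DMSO (0.21 ± 0.12, 0.275). At 72h the drug differences were -2.02 for Prkg2, -1.47 for Gfra1 and -0.68 for Erbb3. P2rx3, an ATP-gated ion channel, and Itpr2, a calcium channel of the endoplasmic reticulum, were both higher over time under the drug, by 0.48 ± 0.10 (0.0194) and 0.68 ± 0.08 (0.00155).

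Secreted and matrix proteins included Col18a1, the collagen that yields endostatin, at 7.10 ± 0.22 in 72h GDC-0623 and 8.5 ± 0.26 in 72h DMSO. Adamtsl3, an ADAMTS-like matrix protein, was at 5.34 ± 0.21 in 72h GDC-0623 and 7.16 ± 0.08 in 72h DMSO, and Cst6, a secreted cystatin, at 10.01 ± 0.26 in 72h GDC-0623 and 11.21 ± 0.09 in 72h DMSO. All 3 were lower at 24h, by -0.73 (0.0139), -0.74 (0.00172) and -0.37 (0.0116). Metabolic members were Slc25a33, a mitochondrial pyrimidine nucleotide carrier, Cox6a2, a subunit of cytochrome oxidase, and Gnpnat1, an enzyme of UDP-GlcNAc synthesis. Their 72h drug differences were -1.41, -1.22 and -1.01, and their 24h differences were -0.85, -0.42 and -0.33, each past the threshold (adjusted p = 0.000273, 0.00332 and 0.00916).

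In 72h GDC-0623 and in 24h DMSO, 5 members each averaged under 5. In 24h GDC-0623 the means under 5 were those of Il33, Egr1, Tcim, Itgb2, Hectd2, Taf7l, Cd300lb, Etv5 and Mgp (3.49 to 4.81). Both limma comparisons of the members used this group. The median SD over the members was 0.208 in 72h GDC-0623, 0.09 in 72h DMSO, 0.138 in 24h GDC-0623 and 0.0929 in 24h DMSO. Of the 72h GDC-0623 arrays, replicate 1 was the lowest in 58 members and replicate 2 the highest in 62. Replicate 1 also stood apart over all genes, at 77.4 on the first principal component, against 44.8 and 49.8 for replicates 2 and 3. The set changed little without it, with 83 genes by the same rule, of which 82 were shared.

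Other probe sets of the same genes were read on the same RNA and arrays that chose the members, so they are a description and no independent support. Of the members, 47 had 89 other probe sets, at any level. Of these 89, 72 were higher in 72h DMSO than in 24h DMSO and lower in 72h GDC-0623 than in 72h DMSO, 47 passed both limits of 0.6, and 17 did not have this pair of signs. Their median differences were 0.663 over time in DMSO and -0.8 with the drug at 72h. Over all 16752 such probe sets of array genes, 25% had this pair of signs and 0.4% passed both limits.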

How the data were processed

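RNA of 12 MC38 cultures was hybridised to one-colour Affymetrix mouse arrays, 3 labelled biological replicates in each of 4 groups. The authors deposited log2 values made by robust multichip averaging (RMA), which subtracts background, quantile normalises arrays and summarises the probes of a probe set. Its version is not given in the sources used here. The method removes any shift shared by most genes and gives no detection call, so low values are close to background. The number of arrays limits the precision.

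Of 45101 probe sets, 64 controls were left out and 45037 tested. In the array annotation 34945 had 1 symbol, 932 several and 9160 none. Each of 18193 genes was represented by its probe set with the highest mean. Groups were compared on the arrays concerned with limma 3.58.1 (R 4.3.3, two-sided, adjusted after Benjamini and Hochberg over every probe set tested, threshold 0.05), the code being tested on simulated data. Errors of differences are standard errors of the fit. All adjusted p-values given are from this test, which weighs a difference of means against the spread between these arrays. Figures were drawn with matplotlib 3.10.9.

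The members, the 23 gene lists (362 entries, 340 measured) and the tests were chosen with earlier results of these data known. Of the lists, 12 held a member, and 25 members stood in a list. Genes named were Car6, Cxadr, Avil and Cd300lb, the 20 members with the largest smaller-of-both change, the largest changes at 24h and over time under GDC-0623, members in a list with up to 3 further genes of it, and the genes next to each limit. Any others were chosen after their values were seen. Promoters came from RefSeq windows matched by gene identifier.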

Additional observations from a re-analysis of the deposited data

How the results depend on the processing

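The members' 24h and time-course counts were recomputed under 1 fit of all arrays, a replicate block, a dim-probe filter, repeated quantile normalisation, scaling to hybridization controls, another variance prior, array weights, a minimum fold, the mean of a gene's probe sets, and without each array in turn. No direction reversed. Same-numbered arrays of the compared groups deviated together only weakly (correlations 0.014 to 0.289). Whether the replicate numbers mark a pairing cannot be told from this. With the number as a replicate block, 51 members were lower and 2 higher at 24h, and 35 higher and 2 lower over time under GDC-0623. At 24h, 53 lower and 1 higher became 35 and 5 with control scaling (median -0.253) and 15 and 0 with a minimum log2 fold of 0.5. The count of higher members was 2 with the dim-probe filter and 0 with the trended and robust prior. Without single arrays, 43 to 49 were lower, 0 to 2 higher, and the median was -0.42 to -0.358. Over time under the drug, 29 higher and 2 lower became 27 higher and 5 lower with control scaling (median 0.134), and 1 higher and 0 lower with the minimum fold. Without single arrays 16 to 30 were higher. The cause of these moves was not tested, except that the minimum fold and fewer arrays are stricter by construction. Limits of 0.8 left 45 members, and limits of 0.5 gave 125. Without single arrays the rule found 80 to 95 genes, 68 of the 85 members were found each time, among them all of the 20 with the largest smaller-of-both change. Scaling moved the median of all genes by 0.151 at 24h and -0.106 over time under the drug. For the named genes, 1063 repeated values kept their side of the threshold, 103 lost it and 34 gained it. Genes under about 5 in a group are limited by background signal.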
